A study of Mus musculus with 4 samples.

Results

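The 3p strands of the miR-23, miR-24 and miR-27 families come from a pair of duplicated miRNA loci in the mouse genome. They were followed here in exosomes from the small intestinal epithelium (SI-Exos) and from serum. The members are mmu-miR-23a-3p, mmu-miR-23b-3p, mmu-miR-24-3p, mmu-miR-27a-3p and mmu-miR-27b-3p. They are picked out by their names, and all 5 are listed in both deposited tables, among 373 miRNAs of SI-Exos and 611 miRNAs of serum exosomes. The study asked how the miRNA cargo of intestinal exosomes changes with age and whether it bears on the loss of subcutaneous fat. Each table holds male C57BL/6J mice on standard chow at 3 months and at 18 months of age, with no further treatment. The 4 groups are named 3m-SI-Exos, 18m-SI-Exos, 3m-serum-exos and 18m-serum-exos. Exosomes were collected by ultracentrifugation, and each group is 1 small RNA library, so that no difference between ages or sources has a replicate check. How many mice were behind a library is not stated.

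Each locus makes a long primary transcript that is cut into several hairpins, and each hairpin yields a 5p and a 3p strand. A mature miRNA finds its target mRNAs mainly through its seed, so that the a and b forms of a family are expected to reach much the same targets. miR-27a and miR-27b are known to oppose fat cell formation and to repress Pparg, the master regulator of adipocyte differentiation. The miR-23 and miR-27 families and miR-24 are also known from blood vessels and from blood cell development.

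The mature sequences explain which comparisons the data allow. They are given as deposited, 5′ to 3′, with the seed (bases 2 to 8) in capitals.
mmu-miR-23a-3p: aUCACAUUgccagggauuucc
mmu-miR-23b-3p: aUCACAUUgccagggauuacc
mmu-miR-27a-3p: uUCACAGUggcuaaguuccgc
mmu-miR-27b-3p: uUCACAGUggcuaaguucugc
mmu-miR-24-3p: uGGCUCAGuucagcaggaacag
The miR-23 pair has the seed UCACAUU and the miR-27 pair the seed UCACAGU. mmu-miR-24-3p has the seed GGCUCAG, which no other listed miRNA has. Over 21 bases, the miR-23 pair differs by 1 substitution (U19A, from miR-23a to miR-23b) and the miR-27 pair also by 1 (C19U, from miR-27a to miR-27b), with positions counted from 1 at the 5′ end. A read that ends before base 19 matches both forms of a pair, and the sources used here do not say how such reads were counted. mmu-miR-24-3p is the same sequence from both loci and cannot be divided between them. Of these 5 sequences, 4 were found unchanged in a RefSeq table of the same genome build.

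In the GRCm38 annotation, the a cluster lies on the plus strand at chr8:84208518-84208921 and holds Mir23a, Mir27a and Mir24-2 within 404 bases. No annotated gene spans it, and an exon of the lincRNA Gm26532 overlaps Mir24-2 alone. The b cluster lies on the plus strand at chr13:63300484-63301275 and holds Mir23b, Mir27b and Mir24-1 within 792 bases. It sits inside the protein-coding gene 2010111I01Rik on the same strand and inside Fancc, a Fanconi anemia DNA repair gene, on the opposite strand. Mir23b is intronic in the 9 transcripts of 2010111I01Rik that span it. Mir27b and Mir24-1 also overlap exons of minor transcripts of that gene.

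The libraries held 212215 miRNA reads in 3m-SI-Exos, 71353 in 18m-SI-Exos, 832002 in 3m-serum-exos and 778237 in 18m-serum-exos. Levels are given as CPM, reads per 1000000 miRNA reads of a library. The authors' RPM divides by a larger library total, of which the miRNA reads were 1.14% in 3m-SI-Exos and 0.411% in 18m-SI-Exos, against 5.89% and 5.31% in serum exosomes at 3 and 18 months. All 9 miRNAs of the intestinal epithelium list were measured in SI-Exos, but their summed level was 276107 CPM at 3 months and 85617 CPM at 18 months. The summed level of 5 red blood cell miRNAs was 6324 and 37882 CPM in SI-Exos and 219814 and 540212 CPM in serum exosomes at 3 and 18 months. The liver miRNA mmu-miR-122-5p reached 384405 CPM in 3m-serum-exos, against 26509 CPM in 18m-serum-exos. Their part in the results below was not tested. Intervals are exact, at 95%, and cover counting error only.

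The 5 members together made up 2.2% of the miRNA reads of 3m-SI-Exos (interval 2.14 to 2.27%), 1.66% of 18m-SI-Exos (1.57 to 1.76%), 4.20% of 3m-serum-exos (4.15 to 4.24%) and 3.19% of 18m-serum-exos (3.15 to 3.23%). The leading member differed in every library that had a single leader. mmu-miR-27b-3p led in 3m-SI-Exos, mmu-miR-24-3p in 18m-SI-Exos and mmu-miR-27a-3p in 18m-serum-exos. In 3m-serum-exos, mmu-miR-27b-3p and mmu-miR-23a-3p stood side by side, with a read ratio of 1.02 (interval 0.992 to 1.05). mmu-miR-23b-3p was the lowest member in 18m-SI-Exos and in both serum libraries, and in 3m-SI-Exos its level did not differ from that of mmu-miR-23a-3p beyond counting error (ratio 1.14, interval 0.971 to 1.33). All other neighbours in the order of levels differed beyond counting error.

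**Figure D1:**
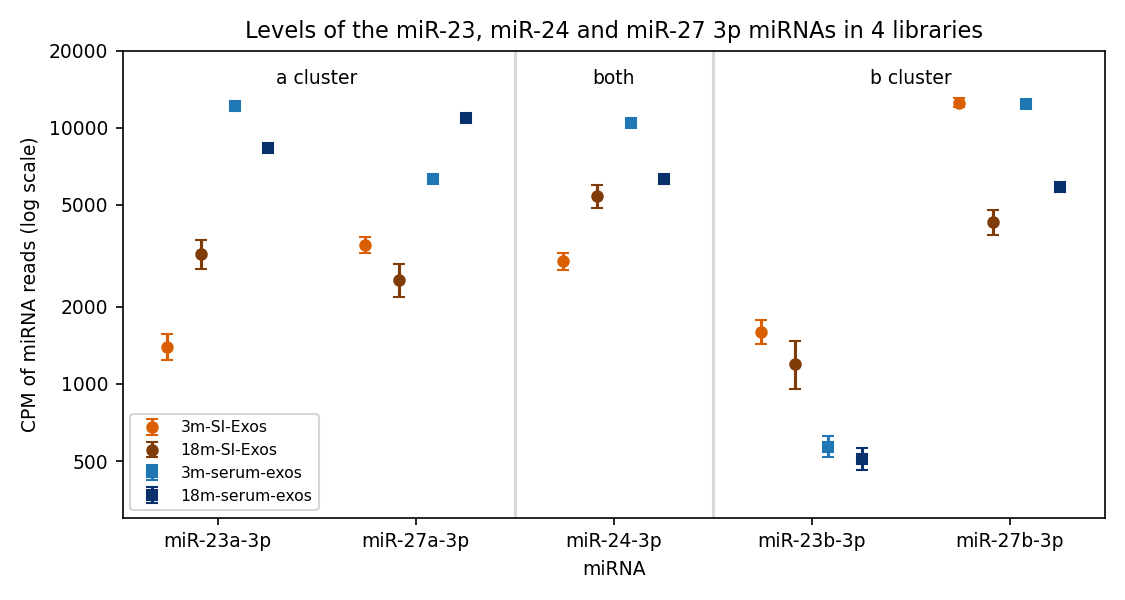
CPM of the miRNA reads (log axis) of each member in each of the 4 libraries, with exact Poisson 95% intervals of the counts; circles are SI-Exos and squares serum exosomes, 1 library each. mmu-miR-23a-3p is lowest in 3m-SI-Exos (1400 CPM) and highest in 3m-serum-exos (12190 CPM), whereas mmu-miR-23b-3p is lower in both serum libraries than in both SI-Exos libraries.

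From 3 to 18 months, the b cluster miRNA mmu-miR-27b-3p was the only member whose call had 1 direction in SI-Exos and in serum: it was higher in young exosomes. Its level was 12544 CPM (2662 reads) in 3m-SI-Exos and 4275 CPM (305 reads) in 18m-SI-Exos, a ratio of 2.93 (interval 2.61 to 3.31). In serum exosomes its level was 12435 CPM (10346 reads) at 3 months and 5850 CPM (4553 reads) at 18 months, a ratio of 2.13 (2.05 to 2.2). It was higher at 3 months under each of the 5 other scalings tried as well. This trait was not particular to it. By ratio it ranked 72 of 214 measured miRNAs in SI-Exos and 52 of 251 in serum exosomes. Among miRNAs outside the members, mmu-miR-192-5p (ratios 3.79 and 3.83) and mmu-miR-143-3p (2.28 and 2.48) were also called higher in both sources. The share of all miRNAs called in 1 direction in both sources was not computed.

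For a call, a miRNA needed 10 reads or more in either library, a 2-fold or larger ratio (or no read at 1 age), and an interval that leaves out 1. By this rule, 1 of 5 members was called higher and 1 lower at 3 months in SI-Exos, where 32.7% of the 214 measured miRNAs were called higher and 29.4% lower. In serum exosomes, 1 of 5 members was called higher and 0 lower, where 18.3% of 251 measured miRNAs were called higher and 25.9% lower. With so few members, these counts are close to the background. The median log2 ratio of the members was 0.41 in SI-Exos, beside 0.45 over all measured miRNAs, and 0.55 in serum exosomes, beside -0.38. The split of all calls in SI-Exos turned on the scaling, with 70 higher and 63 lower on CPM but 131 higher and 31 lower on the authors' RPM and 100 and 50 with DESeq2 size factors. In serum exosomes it was 46 higher and 65 lower on CPM, and 67 and 38 when the totals omitted the 5 leading miRNAs.

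The second b cluster miRNA, mmu-miR-23b-3p, was the scarcest member in 3 of the 4 libraries and was not called on CPM in either source. Its level was 1593 CPM (338 reads) in 3m-SI-Exos and 1191 CPM (85 reads) in 18m-SI-Exos, a ratio of 1.34 (1.05 to 1.72). Its serum level was 570 CPM (474 reads) and 511 CPM (398 reads), a ratio of 1.11 whose interval (0.973 to 1.28) holds 1. Both CPM ratios fell short of the 2-fold limit, but on the authors' RPM the SI-Exos ratio was 3.71 (2.92 to 4.77), which meets the rule.

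On CPM, the a cluster miRNAs moved in opposite directions between the sources. mmu-miR-23a-3p was the member called lower in young SI-Exos, at 1400 CPM (297 reads) in 3m-SI-Exos and 3209 CPM (229 reads) in 18m-SI-Exos, a ratio of 0.436 (0.366 to 0.520). On the authors' RPM the same counts give 16.0 and 13.2 RPM and a ratio of 1.21, so that its direction in SI-Exos depends on the library total used, and with DESeq2 size factors the ratio was 0.624 and no longer called. In serum exosomes its level was 12190 CPM (10142 reads) at 3 months and 8312 CPM (6469 reads) at 18 months, a ratio of 1.47 (1.42 to 1.51). The serum ratio stayed above 1 under each scaling tried.

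mmu-miR-27a-3p, which shares the a cluster transcript with miR-23a, did the reverse. It stood at 3482 CPM (739 reads) in 3m-SI-Exos and 2551 CPM (182 reads) in 18m-SI-Exos, a ratio of 1.37 (1.16 to 1.61), or 3.79 on the authors' RPM. The serum libraries held 6322 CPM (5260 reads) at 3 months and 10902 CPM (8484 reads) at 18 months, a ratio of 0.580 (0.560 to 0.600), or 0.643 on RPM. On CPM, neither ratio reached 2-fold, and both intervals left out 1.

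mmu-miR-24-3p, the product of both loci, followed mmu-miR-23a-3p. Its level was 3011 CPM (639 reads) in 3m-SI-Exos and 5396 CPM (385 reads) in 18m-SI-Exos, a ratio of 0.558 (0.491 to 0.635) that turned to 1.55 on the authors' RPM. Its serum level was 10442 CPM (8688 reads) and 6287 CPM (4893 reads), a ratio of 1.66 (1.60 to 1.72). Neither value met the 2-fold rule.

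**Figure D2:**
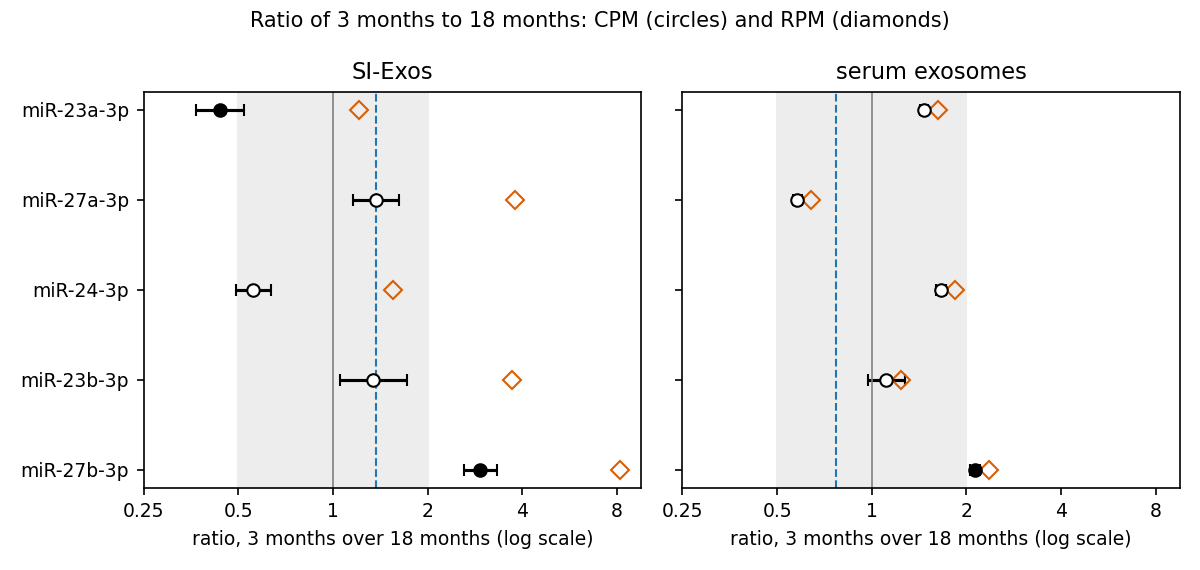
Ratio of 3 months to 18 months for each member in SI-Exos (left) and serum exosomes (right), log axis; circles with exact 95% intervals are CPM ratios (filled where called), diamonds the ratios of the authors' RPM, the grey band spans less than 2-fold and the dashed line is the median of all measured miRNAs. mmu-miR-27b-3p lies right of the band in both panels, and the diamonds of SI-Exos all lie right of 1.

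Thus on CPM 3 of 5 members had ratios on opposite sides of 1 in the 2 sources, as did 77 of the 156 miRNAs that were measured in both. On the authors' RPM, mmu-miR-27a-3p was the only member that did so (3.79 in SI-Exos and 0.643 in serum exosomes). The members are set among all of them in the plot of both log2 ratios. Opposite directions were thus common among all miRNAs on CPM.

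**Figure D3:**
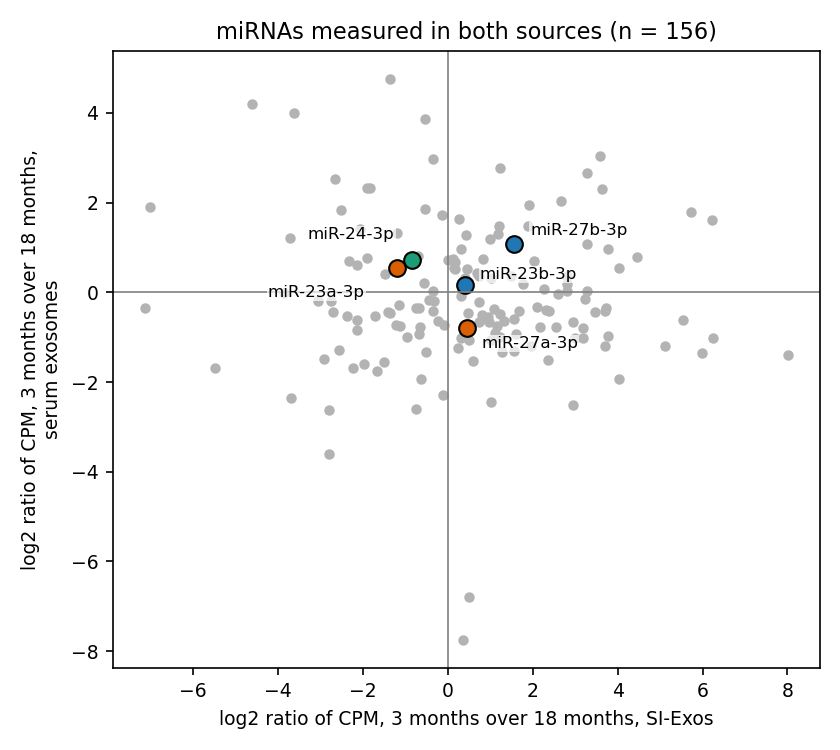
Log2 CPM ratio of 3 months over 18 months in SI-Exos (horizontal) and in serum exosomes (vertical) for the 156 miRNAs measured in both sources, with 0.5 counts added; coloured points are the members (orange a cluster, blue b cluster, green both). mmu-miR-23a-3p and mmu-miR-24-3p lie upper left, mmu-miR-27a-3p lower right, and mmu-miR-27b-3p and mmu-miR-23b-3p upper right.

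The read ratio of 2 miRNAs in a library does not depend on how the library is scaled, and it therefore bears most directly on the comparison of the a cluster with the b cluster. The share of the a form was read from 2 pairs, miR-23 and miR-27. For miR-23, mmu-miR-23a-3p made up 46.8% of the pair in 3m-SI-Exos (297 of 635 reads, interval 42.8 to 50.7%) and 72.9% in 18m-SI-Exos (229 of 314 reads, 67.7 to 77.8%). Its share in serum exosomes was 95.5% at 3 months (95.1 to 95.9%) and 94.2% at 18 months (93.6 to 94.7%). Serum exosomes thus held almost only the a form of miR-23, whereas young SI-Exos held both in nearly equal parts.

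For miR-27, the b form led in 3 of the 4 libraries. mmu-miR-27a-3p made up 21.7% of the pair in 3m-SI-Exos (739 of 3401 reads, 20.4 to 23.2%) and 37.4% in 18m-SI-Exos (182 of 487 reads, 33.1 to 41.8%). It made up 33.7% in 3m-serum-exos (33.0 to 34.5%) and 65.1% in 18m-serum-exos (64.3 to 65.9%). In old serum exosomes the balance was turned, with miR-27a above miR-27b.

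With both pairs added up, the a cluster supplied 25.7% of the reads in 3m-SI-Exos (24.3 to 27%), 51.3% in 18m-SI-Exos (47.8 to 54.8%), 58.7% in 3m-serum-exos (58.1 to 59.3%) and 75.1% in 18m-serum-exos (74.5 to 75.7%). The summed a share was higher at 18 months than at 3 months in both sources, and higher in serum than in SI-Exos at both ages. Adding the 5p strands kept each of these shares within its interval. The summed share also moves with the balance of the families, since miR-23 had the higher a share in every library. The miR-27 pair held 3401 of 4036 reads in 3m-SI-Exos and 487 of 801 in 18m-SI-Exos. In serum exosomes it held 15606 of 26222 at 3 months and 13037 of 19904 at 18 months.

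**Figure D4:**
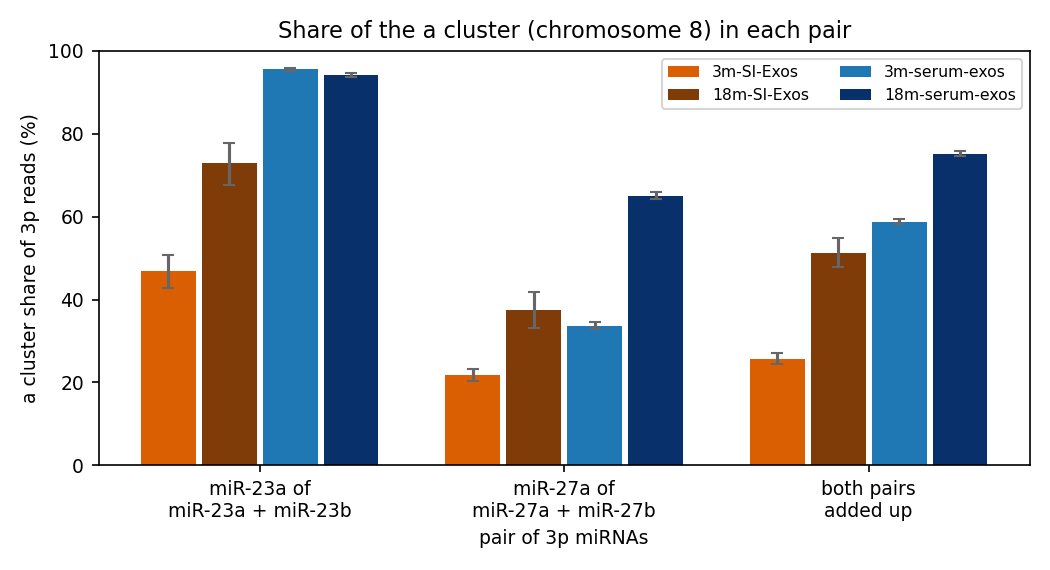
Share of the a cluster form in the reads of the miR-23 pair, the miR-27 pair and both added up, in percent, with exact 95% binomial intervals, 1 library per bar. The a share is higher at 18 months in every set of bars except miR-23 in serum exosomes, where it is 95.5% at 3 months and 94.2% at 18 months.

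The odds of a to b reads at 3 months over those at 18 months were 0.327 for miR-23 (interval 0.240 to 0.442) and 0.465 for miR-27 (0.379 to 0.572) in SI-Exos. In serum exosomes they were 1.32 for miR-23 (1.15 to 1.51) and 0.273 for miR-27 (0.260 to 0.287). The miR-27 pair shifted toward the b form in young exosomes of both sources. The miR-23 pair did so in SI-Exos and went the other way in serum exosomes, by a smaller factor. Summed over both pairs, the odds were 0.328 (0.280 to 0.384) in SI-Exos, and 0.471 (0.453 to 0.491) in the serum libraries. Each of these intervals leaves out 1, and so they did with the 5p strands added, with 2 counts added to each cell, and with 1% of each paralog's reads taken as misread and moved back.

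On CPM, the summed level changed more with age for the b cluster pair than for the a cluster pair. The a cluster sum adds up members that moved in opposite directions. The ratios of miR-23a and miR-27a were 0.436 and 1.37 in SI-Exos, and 1.47 and 0.580 in serum exosomes. The b cluster pair (miR-23b and miR-27b) had 2.59 times the level at 3 months in SI-Exos (3000 against 390 reads, interval 2.33 to 2.88) and 2.04 times in serum exosomes (10820 against 4951 reads, 1.98 to 2.11), and was called higher in both, as it was under each of the 5 other scalings. mmu-miR-27b-3p supplied most of these reads, while mmu-miR-23b-3p alone had ratios of 1.34 and 1.11 and was called in neither source. The a cluster pair was not called in either source, with ratios of 0.848 (0.755 to 0.952) and 0.963 (0.942 to 0.985), but its direction depended on the scaling: with DESeq2 size factors the ratios were 1.21 and 1.03, and on the authors' RPM 2.35, which passed the rule in SI-Exos, and 1.07. The b cluster sum was relatively higher at 3 months than the a cluster sum in both sources, whatever the scaling.

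Members of the same primary transcript did not keep step. The odds of miR-23a to miR-27a, both of the a cluster, at 3 months over 18 months were 0.320 in SI-Exos (interval 0.250 to 0.408) and 2.53 in serum exosomes (2.41 to 2.65). For miR-23b to miR-27b, both of the b cluster, they were 0.456 (0.347 to 0.602) and 0.524 (0.456 to 0.603). The b cluster pair shifted the same way in both sources and the a cluster pair in opposite ways. mmu-miR-24-3p kept closest to mmu-miR-23a-3p, with odds of miR-23a to miR-24 of 0.782 (0.628 to 0.974) in SI-Exos, and 0.883 (0.842 to 0.926) in the serum libraries. Of the 10 possible pairs of members, 9 shifted beyond counting error in SI-Exos, the exception being miR-27a and miR-23b (1.02, 0.756 to 1.37), and 10 shifted in serum exosomes.

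To place these shifts, all other listed miRNA pairs with the same seed and at most 2 different bases were measured in the same way, where each had at least 50 reads in 1 library. In serum exosomes, the miR-27 pair shifted by an absolute log2 odds ratio of 1.87, ahead of all 24 other pairs, whose median was 0.58. The nearest was mmu-let-7a-5p with mmu-let-7g-5p at 1.85, and the smallest shift was 0.02, for mmu-let-7c-5p with mmu-let-7f-5p. The miR-23 pair in serum exosomes shifted by 0.40, place 17 of 26. In SI-Exos, shifts were larger in general: the miR-23 pair (1.62) took place 12 and the miR-27 pair (1.10) place 16 of 28, where the other pairs had a median of 1.27 and ran from 0.05 for mmu-let-7b-5p with mmu-let-7c-5p to 5.93 for mmu-miR-7a-5p with mmu-miR-7b-5p. The size of that largest shift depends on the 0.5 counts added to each cell, since mmu-miR-7b-5p had 312 reads at 3 months and 0 at 18 months. Many of these pairs share let-7 miRNAs and are not independent of each other. Predicted miRNAs were included, and some pairs had 0 different bases over the shorter length, as did a predicted pair in SI-Exos that shifted by 3.42. The sources used here do not say how reads were divided within such pairs, which limits them as a background.

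**Figure D5:**
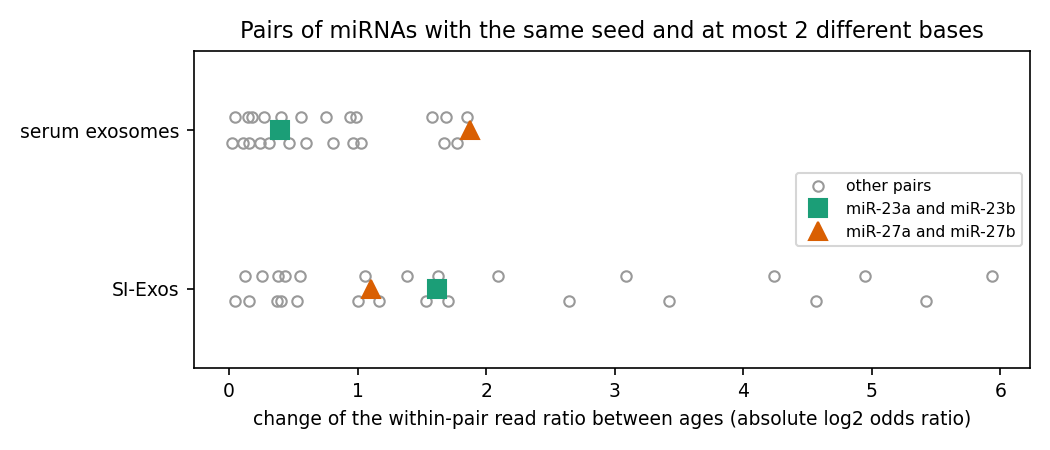
Absolute log2 odds ratio (3 months over 18 months) of the 2 miRNAs of each near-identical pair in SI-Exos and serum exosomes; open circles are other pairs, the square is miR-23 and the triangle miR-27. The miR-27 pair is at the far right in serum exosomes (1.87) and in the middle of the SI-Exos row (1.10).

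Between sources, the 5 members together were 1.90 times as high in serum exosomes as in SI-Exos at 3 months (interval 1.85 to 1.96) and 1.92 times at 18 months (1.81 to 2.03). The size of this difference depended on the scaling: SI-Exos over serum was 0.525 and 0.522 on CPM, 0.205 and 0.232 with TMM and 0.102 and 0.0403 on the authors' RPM. The tables were made separately, and 316 miRNAs are listed in both. The median serum to SI-Exos ratio of those measured was 0.635 at 3 months and 1.07 at 18 months. mmu-miR-23a-3p differed most at 3 months, at 8.71 times in serum (7.76 to 9.81), and was at 2.59 times at 18 months (2.27 to 2.97). mmu-miR-27a-3p was 1.82 times as high in serum at 3 months and 4.27 times at 18 months. mmu-miR-24-3p was 3.47 and 1.17 times as high.

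The b cluster forms had lower serum to SI-Exos ratios than their a cluster forms at both ages. mmu-miR-27b-3p had a ratio of 0.991 at 3 months (0.95 to 1.03) and 1.37 at 18 months (1.22 to 1.54). Its near-equal level at 3 months depended on the scaling, since SI-Exos over serum, 1.01 on CPM, was 0.393 with TMM and 0.195 on the authors' RPM. mmu-miR-23b-3p was lower in serum, at 0.358 times at 3 months (0.310 to 0.412) and 0.429 times at 18 months (0.339 to 0.549), a difference that TMM factors and the authors' RPM did not keep. SI-Exos over serum for it was 1.09 (0.945 to 1.26) and 1.04 (0.810 to 1.31) with TMM, with intervals that hold 1, and it turned to 0.541 and 0.180 on the authors' RPM. Free of scaling, the a to b odds in serum over those in SI-Exos were 24.3 for miR-23 at 3 months (20.2 to 29.3) and 6.03 at 18 months (4.55 to 7.94). For miR-27 they were 1.83 (1.68 to 2.0) and 3.12 (2.58 to 3.79). Both families thus held relatively more of the a form in serum exosomes at both ages.

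The other strands of the hairpins were rare. They matter because the 5p strands of Mir24-1 and Mir24-2 differ from each other, and so tell apart the loci that mmu-miR-24-3p cannot. The seed is in capitals.
mmu-miR-24-1-5p: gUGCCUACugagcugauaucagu
mmu-miR-24-2-5p: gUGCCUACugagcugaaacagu
mmu-miR-27a-5p: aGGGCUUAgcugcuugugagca
mmu-miR-27b-5p: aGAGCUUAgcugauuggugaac
mmu-miR-24-2-5p, of the a cluster, had 13 reads in 3m-SI-Exos and 0 in 18m-SI-Exos, where the exact interval of 0 reads runs up to 51.7 CPM. The interval of its ratio began at 1.02, and it was called higher at 3 months, among few reads. The serum libraries held 31 reads at 3 months and 51 at 18 months, a ratio of 0.569 (0.352 to 0.906) that was not called. In both sources it lay on the opposite side of 1 to mmu-miR-24-3p on CPM. mmu-miR-24-1-5p, of the b cluster, had 4 reads in 3m-SI-Exos and 0 in 18m-SI-Exos, and is not listed in the serum table.

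mmu-miR-27a-5p had 0 and 2 reads in SI-Exos and 5 and 14 reads in serum exosomes, at 3 and 18 months. In serum exosomes it was called lower at 3 months (ratio 0.334, interval 0.0942 to 0.981), the same direction as its 3p strand. This call rests on few reads, and TMM factors, which make serum ratios 1.14 times as large, take the interval past 1. In SI-Exos its reads were too few to be measured. mmu-miR-27b-5p had 7 and 1 reads in SI-Exos and 5 and 2 in serum exosomes, too few to be measured. The 5p share of a miR-27 hairpin was 1.09% at most, in Mir27a of 18m-SI-Exos (interval 0.132 to 3.87%), so that nearly all reads of these hairpins came from the 3p strand. mmu-miR-23b-5p had 2 and 0 reads in serum exosomes, and mmu-miR-23a-5p is listed in neither table.

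The Mir3074 hairpins lie opposite the Mir24 hairpins on the minus strand, and their miRNAs are listed in serum exosomes. mmu-miR-3074-2-3p had 38 and 47 reads at 3 and 18 months, mmu-miR-3074-5p 7 and 6, and mmu-miR-3074-1-3p 0 and 10. The last was called lower at 3 months. mmu-miR-3074-2-3p shares 20 bases with the reverse complement of mmu-miR-24-2-5p, and the sources used here do not say whether the counting used the strand, so that these reads may not be told apart. mmu-miR-3074-5p likewise shares 20 bases with the reverse complement of mmu-miR-24-3p, but its serum reads were few beside the 8688 and 4893 of mmu-miR-24-3p. Of the 9 other miRNAs of the loci, 1 was measured in SI-Exos and called higher, and 4 were measured in serum exosomes, of which 2 were called lower and 0 higher. These are too few to be set apart from the shares of all measured miRNAs, 32.7% called higher in SI-Exos and 25.9% called lower in serum exosomes.

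Across the 4 libraries, each member was set beside the 77 miRNAs with at least 10 reads in every library, by the root mean square difference of log2 CPM centred on each miRNA's mean. mmu-miR-23a-3p was most like mmu-miR-99a-5p (0.31), mmu-miR-150-5p and mmu-miR-484. mmu-miR-27a-3p was most like mmu-miR-146a-5p (0.13), mmu-miR-26b-5p and mmu-miR-92a-3p. mmu-miR-24-3p had mmu-miR-99a-5p (0.39), mmu-miR-126a-3p and mmu-miR-21a-5p nearest to it. mmu-miR-23b-3p had mmu-miR-30a-3p (0.15), mmu-miR-218-5p and mmu-miR-26a-5p, and mmu-miR-27b-3p had mmu-miR-10a-5p (0.30), mmu-miR-34a-5p and mmu-miR-872-5p. The difference between paralogs was larger, at 1.89 for miR-23a and miR-23b and 0.99 for miR-27a and miR-27b. These are descriptions over 4 libraries.

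On CPM, other miRNAs known to oppose fat cell formation did not share one direction with miR-27b. Of 8 such miRNAs, 2 were measured in SI-Exos, with 0 called higher and 1 lower at 3 months, and 5 in serum exosomes, with 1 higher and 2 lower. Their median log2 ratios were -0.97 and -0.77, beside 0.45 and -0.38 over all measured miRNAs. Of the latter, 32.7% were called higher and 29.4% lower in SI-Exos, and 18.3% and 25.9% in serum exosomes. mmu-miR-31-5p, the most abundant in SI-Exos, was measured at 947 CPM in 3m-SI-Exos and 2326 CPM in 18m-SI-Exos, a ratio of 0.407 (0.330 to 0.503). mmu-miR-145a-5p had ratios of 0.641 (0.497 to 0.830) in SI-Exos, and 0.584 (0.5 to 0.681) in the serum libraries and was called in neither. The authors' RPM makes every SI-Exos ratio 2.78 times as large, which puts those of mmu-miR-31-5p and mmu-miR-145a-5p above 1. mmu-miR-130a-3p, which is known to repress Pparg, was called higher in serum exosomes at 66.1 against 21.8 CPM (ratio 3.03, 1.73 to 5.56), and mmu-miR-155-5p lower at 20.4 against 59.1 CPM (0.346, 0.186 to 0.615).

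Of 10 other miRNAs of blood vessels, 7 were measured in SI-Exos (1 called higher, 2 lower) and 8 in serum exosomes (2 higher, 0 lower), with median log2 ratios of -0.65 and -0.29. The medians over all measured miRNAs were 0.45 and -0.38. Of all measured miRNAs, 32.7% were called higher and 29.4% lower in SI-Exos, and 18.3% and 25.9% in serum exosomes. mmu-miR-143-3p, a smooth muscle miRNA and the most abundant of the list in every library but 18m-serum-exos, was called higher at 3 months in both sources, as was mmu-miR-27b-3p. It stood at 74170 and 32556 CPM in SI-Exos (ratio 2.28, 2.18 to 2.38) and at 41839 and 16875 CPM in serum exosomes (2.48, 2.43 to 2.53). On CPM, mmu-miR-145a-5p of the same list went the other way. Its SI-Exos ratio was 0.641 and its serum ratio 0.584, and neither was called. The list thus did not share the direction of mmu-miR-143-3p. The endothelial miRNA mmu-miR-126a-3p stood at 7398 and 12333 CPM in SI-Exos (0.600, 0.552 to 0.652) and at 19564 and 25044 CPM in serum exosomes (0.781, 0.765 to 0.798).

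Markers of other cells moved with age in the same libraries. Over all measured miRNAs, 32.7% were called higher and 29.4% lower at 3 months in SI-Exos, and 18.3% and 25.9% in serum exosomes. The endothelial, myeloid and striated muscle lists are too short to be set apart from these shares. Of the 9 epithelial miRNAs, 6 were called higher and 0 lower at 3 months in SI-Exos, and 1 higher and 4 lower in serum exosomes. In SI-Exos, mmu-miR-429-3p stood at 137050 and 26866 CPM at 3 and 18 months and mmu-miR-192-5p at 77176 and 20350 CPM. All 3 measured red blood cell miRNAs were called lower at 3 months in SI-Exos, as were 4 of 5 in serum exosomes, where mmu-miR-451a alone stood at 215611 and 525476 CPM. Of 4 myeloid miRNAs, 2 were called lower at 3 months in each source, and mmu-miR-223-3p stood at 569 and 2898 CPM in serum exosomes. Of 2 endothelial miRNAs, 1 was called lower in SI-Exos and 0 in serum exosomes. Of 3 striated muscle miRNAs, 1 was called higher and 2 lower in SI-Exos, and 1 was called lower in serum exosomes. mmu-miR-122-5p of the liver was called higher at 3 months in serum exosomes, and in SI-Exos it stood at 245 and 350.4 CPM. In bulk exosome libraries, fewer vesicles of a cell type and less of a miRNA per vesicle cannot be told apart, and the part of these markers in the members' ratios was not tested.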

How the data were processed

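Per the submitters' notes, Bowtie2 2.2.9 and GRCm38 were used. For each library, the deposited read counts are those of mature miRNAs. They also deposited RPM, reads per 1000000 of a larger library total. The deposited log2 fold changes, Poisson p-values and FDR compare the libraries and were not used. The labels name an MGI library kit and DNBSEQ sequencing, whereas the published methods name a VAHTS kit and HiSeq.

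Counts were divided by the sum of their column to give CPM. Ratios of 3 months over 18 months have exact (Clopper-Pearson) 95% intervals from the conditional binomial of the 2 counts, CPM values exact Poisson intervals, and a to b odds the conditional odds ratio with its exact interval. With 1 library per group no p-value was computed. Log2 ratios in medians had 0.5 counts added. To be measured, a miRNA needed 10 reads in either library, and to be called also a 2-fold ratio or no read at 1 age, with 1 outside the interval. The interval code was tested on simulated data. 1 read is 4.71, 14.0, 1.20 and 1.28 CPM in 3m-SI-Exos, 18m-SI-Exos, 3m-serum-exos and 18m-serum-exos.

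The text names the 5 members, the other listed miRNAs of the loci, up to 4 most abundant members of each other list, the 3 miRNAs most like each member, and the near-identical pairs at either end. The members and lists were chosen with earlier results of these data known. Alternatives were edgeR's TMM factors (4.0.16), DESeq2's size factors (1.42.0), the deposited RPM, totals without the 5 most abundant miRNAs, known miRNAs alone, other limits of the calling rule, paralogs added up, 5p strands added, added counts and, chosen after seeing the data, 1% of paralog reads moved back. Positions come from a GRCm38 annotation. Python 3.11.15 with scipy 1.17.1, pandas 2.3.3, numpy 2.4.6 and matplotlib 3.10.9 and R 4.3.3 were used.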

Additional observations from a re-analysis of the deposited data

Results flagged for a closer look

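Opposite directions of the ratio of 3 months over 18 months in the 2 sources drew attention to 3 members and to the balance of miR-23. The difference between sources was not tested in any of them, since each group is 1 library. mmu-miR-23a-3p had a ratio of 0.436 in SI-Exos and 1.47 in serum exosomes. mmu-miR-27a-3p had 1.37 in SI-Exos and 0.580 in serum exosomes. mmu-miR-24-3p had 0.558 in SI-Exos and 1.66 in serum exosomes. On the authors' RPM, mmu-miR-23a-3p (1.21) and mmu-miR-24-3p (1.55) lay above 1 in SI-Exos too. The odds of miR-23a to miR-23b reads, which do not depend on the scaling, were 0.327 in SI-Exos and 1.32 in serum exosomes.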

How the results depend on the processing

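Relative to CPM, scaling shifted the log2 ratio of every miRNA alike, by 0.07 (TMM), 0.52 (DESeq2), 1.47 (RPM) in SI-Exos, and there by -0.15 without the 5 most abundant miRNAs and -0.13 with known miRNAs alone, and in serum exosomes by 0.19, 0.10, 0.15, 0.39 and 0.00. In the order miR-23a, miR-27a, miR-24, miR-23b and miR-27b, the SI-Exos ratios were 0.624, 1.95, 0.798, 1.91 and 4.20 with DESeq2 and 1.21, 3.79, 1.55, 3.71 and 8.15 with RPM, which turned miR-23a and miR-24. In serum exosomes, those of miR-23a, miR-27a, miR-24 and miR-27b were 1.67, 0.662, 1.90 and 2.43 with TMM, 1.57, 0.620, 1.78 and 2.27 with DESeq2, 1.63, 0.643, 1.84 and 2.36 with RPM, and 1.92, 0.761, 2.18 and 2.79 without the 5 most abundant, where miR-23b was 1.46. The members called higher in SI-Exos numbered 3 with RPM and 0 at 4-fold, and those called lower 0 with DESeq2, RPM, 4-fold or paralogs added up and 2 at 1.5-fold. In serum exosomes, 2 were called higher without the 5 most abundant or at 1.5-fold, 0 at 4-fold or with paralogs added up, and 1 was called lower at 1.5-fold. Of all measured miRNAs in SI-Exos, 61.2% were called higher with RPM and 22.9% at 4-fold. Those called lower there were 23.4% with DESeq2, 14.5% with RPM, 21.0% at 4-fold and 32.7% at 1.5-fold. In serum exosomes, 26.7% were called higher without the 5 most abundant, 23.1% at 1.5-fold and 8.76% at 4-fold, and 34.3% lower at 1.5-fold. With so few members, these counts are not set apart from the shares. The SI-Exos over serum ratio of all 5 members, 0.525 at 3 months and 0.522 at 18 months, was 0.205 and 0.232 with TMM, 0.415 and 0.343 with DESeq2 and 0.102 and 0.0403 with RPM, 0.271 at 3 months without the 5 most abundant and 0.579 at 18 months with known miRNAs alone. Moving back 1% of paralog reads gave miR-23a shares of 96.5 and 95.1% in serum exosomes. All 18 alternative odds kept their direction and an interval without 1. Depth limits the 5p strands and 18m-SI-Exos most. No paired analysis was possible because each group is 1 library.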
